A study of Mus musculus with 12 samples.

Results

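The genes described here carry the names of the machinery that moves proteins and lipids between membrane compartments: coats, Rab and Arf GTPases, tethers, sorting nexins and membrane fusion proteins. They were chosen by symbol, from the prefixes Sec, Sar1, Cop, Rab, Arf, Trappc, Tmed, Vps, Snx and Stx followed by the usual number or letter; the rule uses no measured value, but it was drawn up with earlier results of these data known. Of the 6429 genes in both of the authors' deposited tables, 118 met this rule. Cargo leaves the endoplasmic reticulum (ER) at exit sites in vesicles coated by COPII, returns from the Golgi under the COPI coat, and moves on to the cell surface or to endosomes. Rab GTPases mark each compartment, and endosomal cargo is recycled by retromer and sorting nexins or sent to lysosomes by the ESCRT and HOPS complexes. Enterocytes, the absorptive cells of the villus, use the ER route to export dietary fat as chylomicrons and a polarised recycling route to supply their apical brush border.

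RNA polymerase II (Pol II) occupancy had been measured by chromatin immunoprecipitation and sequencing (ChIP-seq) in epithelium of the mouse duodenum. The groups were villus of wild-type (WT) mice, crypt of WT mice, and villus of mice labelled as double knockouts of Hnf4 (Hnf4DKO), with 3 Pol II libraries listed for each. WT mice received oil vehicle and the mice labelled Hnf4DKO received tamoxifen at 50 mg/kg per day for 2 days and were killed 1 day later. Epithelium was released with 3 mM EDTA for 35 min in WT and 25 min in mutant tissue, and a 70 µm filter held back villi and passed crypts. The floxed alleles, the Cre driver, the strain, the sex and the age are not given in the sources used here, nor whether the libraries of a group came from separate animals. Genotype label, tamoxifen and EDTA time varied together and cannot be told apart.

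The values are log2 fold changes, standard errors (SE, printed after ±) and DESeq2 adjusted p-values from the authors' deposited table for crypt, which compares WT villus with WT crypt, and from the authors' deposited table for the DKO label, which compares WT villus with the villi labelled DKO. A positive value is read as more Pol II in WT villus. This direction rests on the order in which the names of the authors' deposited tables give the groups, since no column states it, and every direction below depends on it. Genes with an adjusted p-value under 0.05 are said to be called. Values per library could not be assigned to samples, so each gene is given by its mean signal in the 3 groups, in size-factor-normalised counts rebuilt from the deposited mean and both fold changes. The spread between libraries is seen only through the SE, and library depth is unknown here. A ChIP signal from mixed epithelium does not separate fewer cells of a type from less Pol II per cell. Both comparisons share the WT villus libraries, so their values are set side by side without a test of their likeness.

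The targeted genes went against the label. Read in this direction, the authors' deposited table for the DKO label gives the villi labelled DKO more Pol II than WT villus at Hnf4a, by -0.54 ± 0.14 on the log2 scale (DESeq2 adjusted p = 4.84e-04), and at Hnf4g, by -1.45 ± 0.22 (adjusted p = 7.81e-10). Signal over a whole gene need not report the loss of an exon, and these villi are called labelled-DKO villi below. All 10 enterocyte markers found in the tables, of 11 looked for, were called higher in WT villus in both comparisons, and their summed rebuilt signal was 13014 in WT villus, 5325 in WT crypt and 3981 in labelled-DKO villus. The order of the last 2 groups did not hold at every marker. By the difference of both fold changes, 4 of the 10 were called lower in labelled-DKO villus than in crypt. Fabp1 was called higher, at 0.94 ± 0.26. Of 10 markers of crypt stem and dividing cells 3 were found, and all 3, Axin2, Ccnd1 and Pcna, were called higher in crypt. Ccnd1 and Pcna were also called higher in labelled-DKO villus, and the 3 sum to 339 in WT villus, 513 in crypt and 482 in labelled-DKO villus. Lgr5, Olfm4 and Mki67, which define those cells, were not in the tables. Of 12 goblet and Paneth cell markers 8 were found, with sums of 2989 in WT villus, 1858 in crypt and 3139 in labelled-DKO villus. Sums weight genes of high signal, here Fcgbp (1692 in WT villus) and Muc2 (661), while Agr2 and Spink4 were lowest in WT villus. The Paneth cell genes Lyz1, Defa24 and Ang4 were not among the 8, and neither was Clca3. Cd74 was the 1 of 7 immune markers found, and none of 6 mesenchymal markers was found.

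Trafficking genes were called in both directions. By the adjusted p alone, their share was near that of all genes for the DKO label and below it for crypt. By the authors' deposited table for crypt, 36 of the 118 (30.5%) were called, 16 higher in WT villus and 20 higher in crypt, beside 37.4% of all 6429 genes called, 18.6% higher in villus and 18.8% higher in crypt. By the authors' deposited table for the DKO label, 63 of the 118 (53.4%) were called, 23 higher in WT villus and 40 higher in labelled-DKO villus, beside 51.9% of all genes, 22.4% higher in WT villus and 29.5% higher in labelled-DKO villus. The members' median log2 fold change was -0.05 for crypt and -0.12 for the DKO label, and that of all genes -0.04 and -0.08. The balance of directions depended on scaling. With fold changes centred on the median of all genes the members' splits became 22 against 14 for crypt and 31 against 28 for the DKO label. All genes changed sides as well. After centring 35.9% of them were called for crypt, 21.1% higher in WT villus and 14.8% higher in crypt, and 48.7% for the DKO label, 26.6% higher in WT villus and 22.1% higher in labelled-DKO villus. A call with a log2 fold change beyond 0.5 was made at 11 members (9.32%) for crypt, beside 18.2% of all genes, and at 26 (22.0%) for the DKO label, beside 29.2% of all genes. Among genes with a mean signal of at least 100, 32.6% of members were called for crypt, beside 47.0% of all such genes. For the DKO label these shares were 60.9% and 61.6%. The differences between shares were not tested.

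By role, the 10 genes of the COPII coat and ER exit sites had the highest median of the groups with 4 or more members, at 0.18 for crypt and 0.33 for the DKO label. The 4 genes of the ER translocon and signal peptidase had the lowest, at -0.33 and -0.45. The 50 genes of endosomes, lysosomes and retrieval had 6 calls higher in WT villus and 21 higher in labelled-DKO villus, or 12% and 42%, beside 22.4% and 29.5% of all genes. After centring these were 7 and 15, or 14% and 30%, beside 26.6% and 22.1% of all genes. These medians and counts describe lists made with earlier results of these data known, and no list was tested against another.

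**Figure D1:**
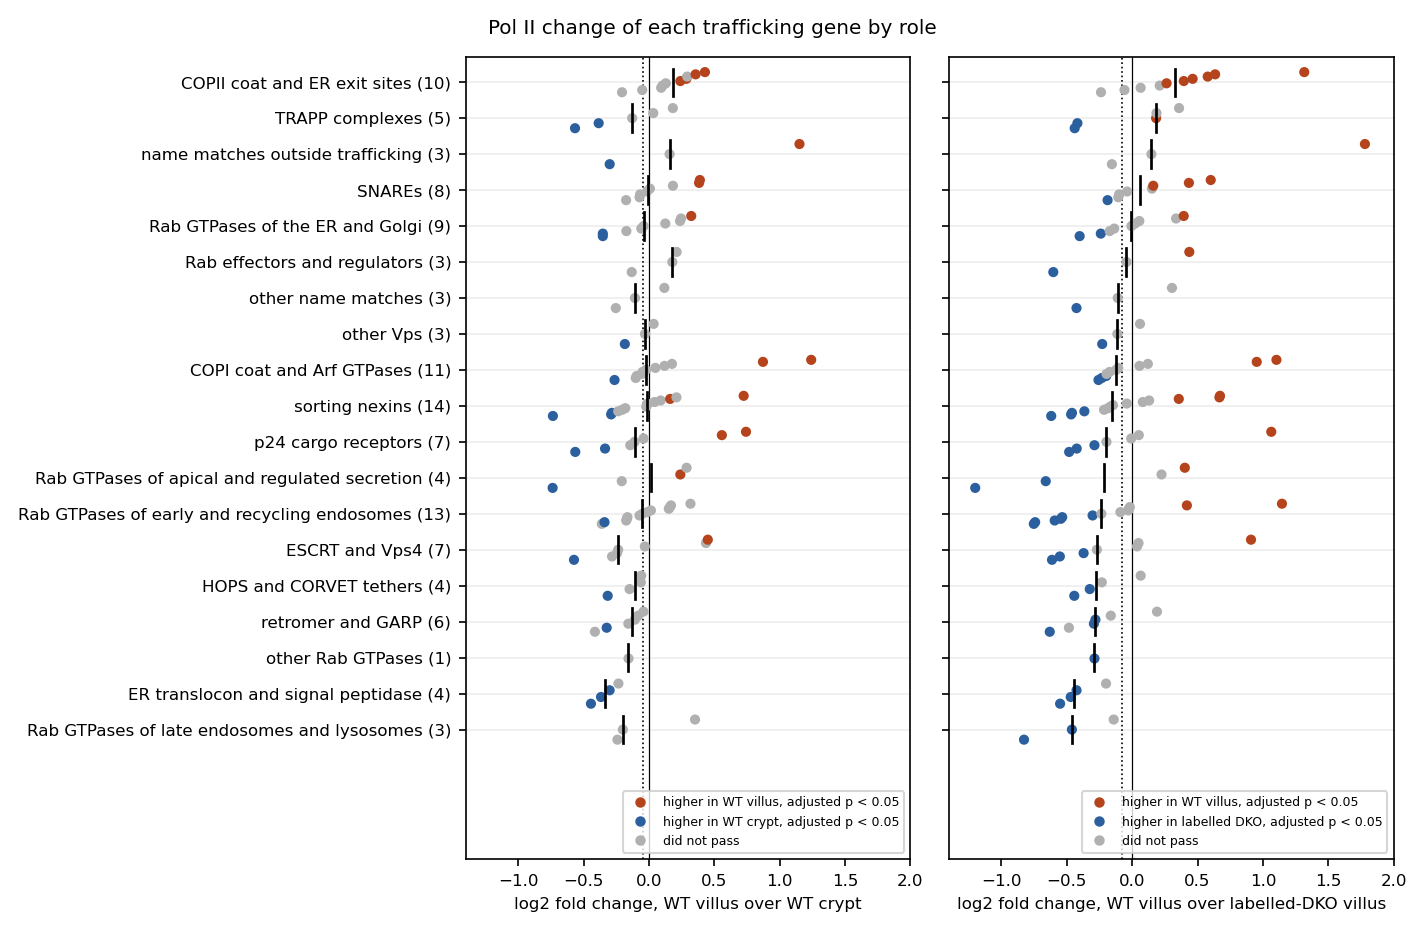
Each point is 1 of the 118 trafficking genes, placed by its log2 fold change (x axes) in WT villus over WT crypt (left) and over labelled-DKO villus (right), with rows for roles and the number of genes in brackets. Points are coloured where the DESeq2 adjusted p was under 0.05, bars are role medians and the dotted line is the median of all 6429 genes. The COPII row holds coloured points on the WT villus side alone, and the translocon row on the opposite side alone.

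At the ER exit step, Pol II was called higher in WT villus at 4 of 10 measured genes against crypt and at 6 of 10 against labelled-DKO villus. Of all genes 18.6% and 22.4% were called higher in WT villus. No gene of the COPII list was called in the opposite direction by the DESeq2 adjusted p. At an unadjusted p under 0.05 the opposite counts were 0 for crypt and 1, Sar1a, for the DKO label. After centring 4 and 8 genes were called higher in WT villus, beside 21.1% and 26.6% of all genes, again with 0 of the list opposite. The 6 genes span the steps of coat assembly: Sar1b, the GTPase that starts it, Sec16b, an exit site scaffold, Sec23a and Sec24d of the inner coat, and Sec13 and Sec31a of the outer cage. The human counterpart of Sar1b is mutated in chylomicron retention disease.

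Sec16b had the largest COPII difference. Its rebuilt mean signal was 483 in WT villus, 359 in WT crypt and 194 in labelled-DKO villus. WT villus was highest and labelled-DKO villus lowest, with crypt between. In the authors' deposited table for crypt the difference was 0.43 ± 0.14 (1.35-fold, DESeq2 adjusted p = 0.0083), and in the authors' deposited table for the DKO label it was 1.32 ± 0.14 (2.49-fold, adjusted p = 2.13e-19). The gene lies on mm9 chromosome 1 from 159436927 to 159498555 on the plus strand, with 2 annotated starts, and its span overlaps Gm15486, so their signals cannot be told apart there. Its relative Sec16a, the more widely expressed scaffold, differed by 0.09 ± 0.06 and 0.06 ± 0.06 in the 2 authors' deposited tables and was called in neither.

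Sec23a followed the same order, with 603 in WT villus, 511 in crypt and 388 in labelled-DKO villus. In the authors' deposited table for crypt it differed by 0.24 ± 0.08 (DESeq2 adjusted p = 0.0060), and in that for the DKO label by 0.63 ± 0.08 (adjusted p = 8.49e-16). Sec31a read 697, 572 and 467 in the same order of groups. Its changes in the authors' deposited tables were 0.29 ± 0.11 for crypt (DESeq2 adjusted p = 0.031) and 0.58 ± 0.11 for the DKO label (adjusted p = 1.45e-06). These 3 genes thus had their lowest mean in labelled-DKO villus. By the difference of both fold changes, labelled-DKO villus was called below crypt at Sec16b and Sec23a. At Sec31a it was not, at -0.29 ± 0.16 (Wald test, adjusted p = 0.242). Sar1b, Sec13, Sec24a and Sec24d also had their lowest mean in labelled-DKO villus, and none was called below crypt there.

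Sar1b had 336 in WT villus, 262 in crypt and 255.5 in labelled-DKO villus, so WT villus stood above a lower pair. The authors' deposited tables give it 0.36 ± 0.10 for crypt (DESeq2 adjusted p = 0.0022) and 0.39 ± 0.10 for the DKO label (adjusted p = 3.36e-04). Sec24d and Sec13 were called for the DKO label alone in the authors' deposited tables, at 0.46 ± 0.17 (DESeq2 adjusted p = 0.017) and 0.26 ± 0.08 (adjusted p = 0.0051). Their values for crypt, 0.29 ± 0.17 and 0.10 ± 0.09 in the authors' deposited table, did not pass. Sec24a, at 0.21 ± 0.09 for the DKO label in the authors' deposited table, missed the threshold with an adjusted p of 0.0504, while Sec24c stood at -0.06 ± 0.09.

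**Figure D2:**
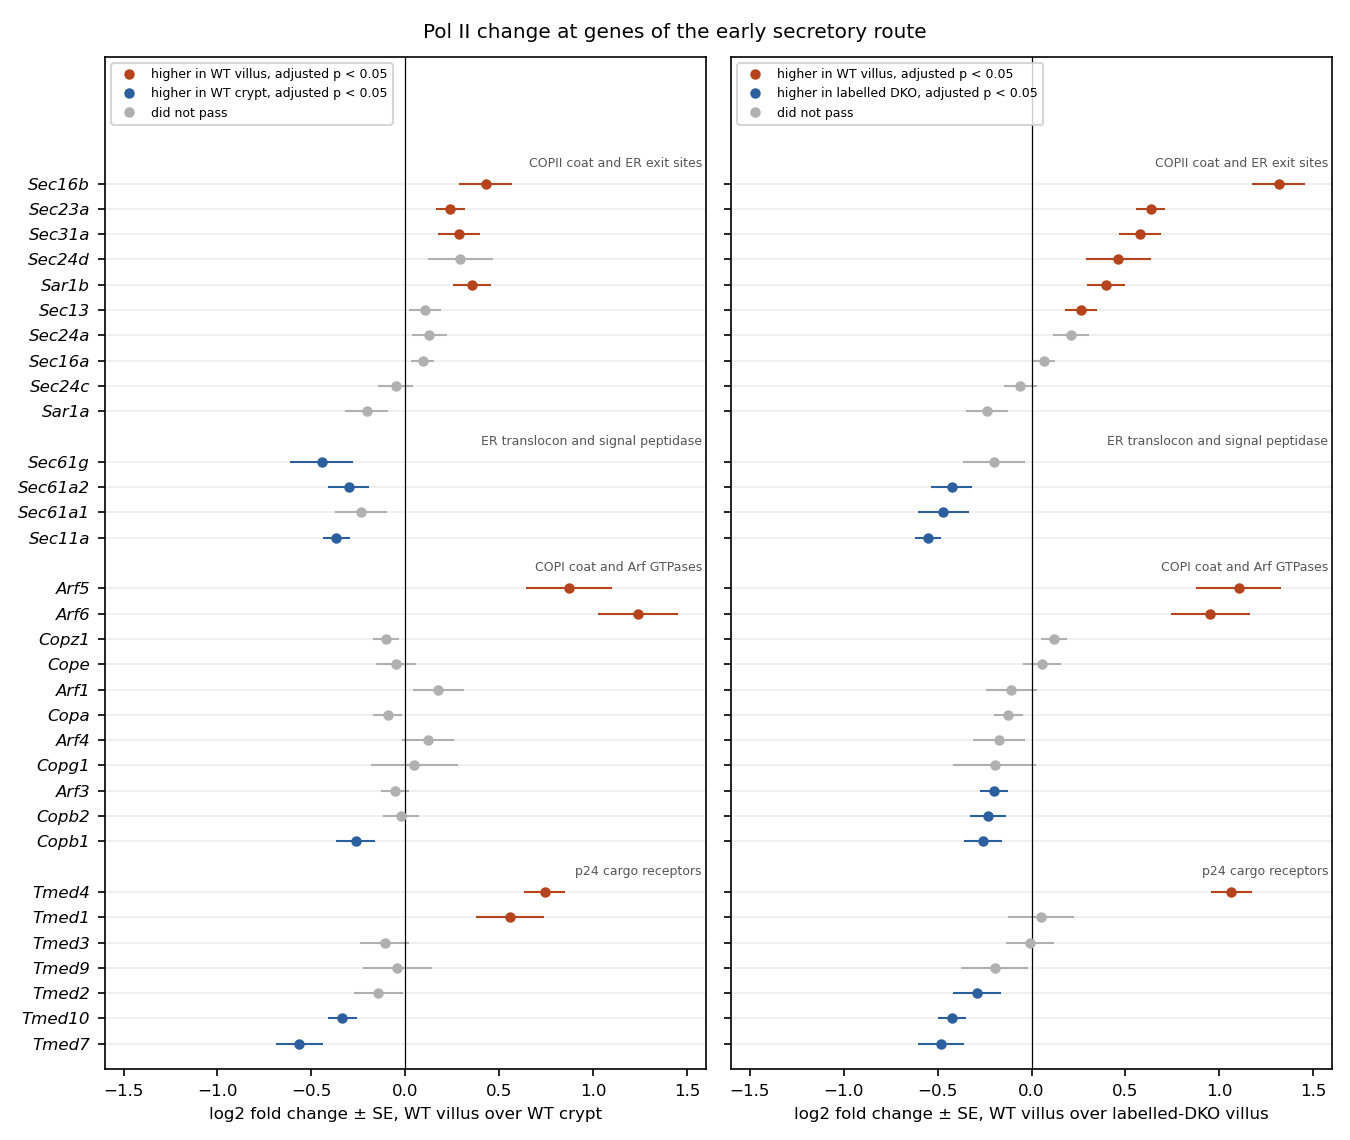
Log2 fold change with its SE (x axes) of every measured gene of 4 roles, for WT villus over WT crypt (left) and over labelled-DKO villus (right); colours mark DESeq2 adjusted p under 0.05. Sec16b lies at 0.43 and 1.32, Arf5 and Arf6 stand apart from the other COPI and Arf genes, and Tmed4 and Tmed7 lie on opposite sides of 0.

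Promoters of the members were read for 4 motifs. A window ran from 250 bases before to 50 after each RefSeq start (300 bases, GRCm38.p6), and 94 of the 118 members had one, 117 windows in all. The motif TGACGTGG, which the ER stress factors XBP1 and ATF6 are known to bind, was searched on both strands. It was found at 7 of the 94 members (7.45%), namely Arf1, Copb1, Copb2, Sec16b, Sec23a, Sec24d and Stx5a, and in 1.14% of the tables' genes with a window. By windows the shares were 6.84% of the members' 117, 0.926% of the 6589 of the tables' genes and 0.676% of all 32851. The longer ER stress element, CCAAT and CCACG with any 9 bases between, was in 0 of the 117 windows and 0.152% of those of the tables' genes. The HNF4 motif CAAAGTCCA was at Rab11fip3, Sec16b and Snx11, which is 3.19% of members with a window and 0.814% of the tables' genes. The COPII windows with a match are printed 5′ to 3′ on the gene's strand, with the motif, or its reverse complement, in capitals. The first 3 hold TGACGTGG and the last, at the second Sec16b start, holds the HNF4 motif read on the other strand.
Sec16b, chr1:157506546-157506845, plus strand: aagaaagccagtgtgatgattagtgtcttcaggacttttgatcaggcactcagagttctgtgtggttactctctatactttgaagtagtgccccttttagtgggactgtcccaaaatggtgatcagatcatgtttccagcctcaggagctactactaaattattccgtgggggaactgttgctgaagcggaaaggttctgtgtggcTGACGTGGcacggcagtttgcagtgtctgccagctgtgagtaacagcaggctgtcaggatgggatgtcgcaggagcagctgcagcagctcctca
Sec23a, chr12:59011968-59012267, minus strand: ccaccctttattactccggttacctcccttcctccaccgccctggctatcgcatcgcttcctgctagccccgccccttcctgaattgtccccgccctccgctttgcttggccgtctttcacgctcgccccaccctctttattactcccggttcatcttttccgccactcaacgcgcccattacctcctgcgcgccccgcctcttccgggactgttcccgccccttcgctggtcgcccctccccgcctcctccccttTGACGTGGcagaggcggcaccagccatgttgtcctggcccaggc
Sec24d, chr3:123267246-123267545, plus strand: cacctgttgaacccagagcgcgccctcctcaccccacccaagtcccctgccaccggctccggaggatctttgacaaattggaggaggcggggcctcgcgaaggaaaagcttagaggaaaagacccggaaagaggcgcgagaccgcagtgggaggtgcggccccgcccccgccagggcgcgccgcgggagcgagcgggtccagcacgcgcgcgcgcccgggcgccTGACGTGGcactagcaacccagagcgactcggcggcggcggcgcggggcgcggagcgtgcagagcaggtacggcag
Sec16b second start, chr1:157525920-157526219, plus strand: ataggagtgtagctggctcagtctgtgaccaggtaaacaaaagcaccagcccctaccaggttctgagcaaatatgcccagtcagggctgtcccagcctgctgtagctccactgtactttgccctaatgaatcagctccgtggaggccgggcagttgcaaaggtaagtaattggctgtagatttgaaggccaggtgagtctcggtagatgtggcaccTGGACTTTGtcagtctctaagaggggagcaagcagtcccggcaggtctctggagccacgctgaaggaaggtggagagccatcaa

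The match begins 44 bases before the start at Sec16b, 26 before it at Sec24d and at base 6 after it at Sec23a, and the HNF4 match begins 34 bases before the second Sec16b start. Of the other genes with TGACGTGG, Copb1 and Copb2 were called toward labelled-DKO villus, with -0.26 ± 0.10 (DESeq2 adjusted p = 0.025) and -0.23 ± 0.10 (adjusted p = 0.033) in the authors' deposited table, and Arf1 and Stx5a were not called. The motif was thus present at genes called in either direction. A match describes letters in a window and does not show a bound site.

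At the step of entry into the ER, the authors' deposited tables call 3 of 4 measured translocon and signal peptidase genes higher in crypt than in WT villus, and 3 of 4 higher in labelled-DKO villus, and after centring 2 and 3. Of all genes 18.8% were called higher in crypt and 29.5% higher in labelled-DKO villus, and after centring 14.8% and 22.1%. None of the 4 was opposite by the DESeq2 adjusted p or at an unadjusted p under 0.05. Sec11a, a catalytic subunit of signal peptidase, read 182 in WT villus, 234 in crypt and 266 in labelled-DKO villus. It differed by -0.37 ± 0.07 for crypt (DESeq2 adjusted p = 4.09e-06) and -0.55 ± 0.07 for the DKO label (adjusted p = 4.12e-14) in the authors' deposited tables. Sec61a1 and Sec61a2 encode channel subunits, and the authors' deposited table for the DKO label gives -0.47 ± 0.14 and -0.43 ± 0.11 (DESeq2 adjusted p = 0.0017 and 3.11e-04). For crypt the authors' deposited table has Sec61a2 at -0.30 ± 0.11 (DESeq2 adjusted p = 0.020) and Sec61g, the small channel subunit, at -0.44 ± 0.17 (adjusted p = 0.026). Sec61a1 for crypt (-0.23 ± 0.14) and Sec61g for the DKO label (-0.20 ± 0.17) did not pass. Of the Srp, Ssr and Spcs genes, which also serve ER entry but lie outside this list of 4, those called mostly took the same side. Against crypt Srp19, Ssr1, Ssr2, Ssr3 and Spcs2 passed, at -0.65, -0.59, -0.47, -0.43 and -0.41 in the authors' deposited table. No Srp, Ssr or Spcs gene passed toward WT villus there. For the DKO label Ssr1, Ssr2, Ssr3 and Srp19 passed with negative values, from -0.56 to -0.34. Srp14 alone passed in the opposite direction, at 1.16 ± 0.19. Srp9, Srp68, Srpr, Ssr4 and Spcs1 passed in neither comparison.

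Markers on the list for goblet and Paneth cells, which are rich in this machinery, had no common direction against crypt. Its Paneth cell genes Lyz1, Defa24 and Ang4 were not found. Of the 8 found, the authors' deposited tables call 4 higher in WT villus and 2 higher in crypt, and 2 higher in labelled-DKO villus and 0 higher in WT villus, by the DESeq2 adjusted p and at an unadjusted p under 0.05 alike. The 2 called higher in both crypt and labelled-DKO villus were Agr2, a disulfide isomerase of goblet cells, at -0.66 ± 0.13 and -1.06 ± 0.13, and Spink4, at -0.72 ± 0.10 and -0.81 ± 0.10, in the authors' deposited tables. The 4 called higher in WT villus than in crypt were Muc2, Fcgbp, Zg16 and Tff3, the side opposite to the translocon genes, and none of these was called for the DKO label. Muc2, the main goblet mucin, was at 0.93 ± 0.17 for crypt and 0.15 ± 0.17 for the DKO label in the same deposited tables. Of all genes 18.6% were called higher in WT villus and 18.8% higher in crypt. For the DKO label 22.4% were called higher in WT villus and 29.5% higher in labelled-DKO villus. The 3 crypt markers found were all on the side of the translocon genes, with medians of -0.56 for crypt and -0.62 for the DKO label. Axin2 was at -0.49 ± 0.17 and -0.38 ± 0.17, Ccnd1 at -0.56 ± 0.19 and -0.74 ± 0.18, and Pcna at -0.95 ± 0.20 and -0.62 ± 0.20 in the authors' deposited tables, and of these 6 values that of Axin2 for the DKO label did not pass (DESeq2 adjusted p = 0.053). The part of secretory or crypt cells in the translocon values was not tested.

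Retrieval from the Golgi showed no common direction. The 11 COPI and Arf genes had medians of -0.02 and -0.12. Arf6, which acts at the plasma membrane and recycling endosomes, had the largest difference from crypt of all members, with 339 in WT villus, 144 in crypt and 175 in labelled-DKO villus. It was higher in WT villus by 1.24 ± 0.21 (2.36-fold, DESeq2 adjusted p = 8.30e-08) in the authors' deposited table for crypt and by 0.95 ± 0.21 (1.94-fold, adjusted p = 2.50e-05) in that for the DKO label. Arf5, a Golgi Arf with a low signal, read 53.5, 29.3 and 24.9. The authors' deposited tables give Arf5 0.87 ± 0.23 (DESeq2 adjusted p = 7.46e-04) and 1.10 ± 0.23 (adjusted p = 5.84e-06). In both genes WT villus stood alone at the high end.

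The COPI coat subunits measured (Copa, Copb1, Copb2, Cope, Copg1 and Copz1) differed little. Of them Copb1 alone was called against crypt, at -0.26 ± 0.10 (DESeq2 adjusted p = 0.032) in the authors' deposited table. Copb1, Copb2 and Arf3 were called higher in labelled-DKO villus, Arf3 at -0.20 ± 0.07 (DESeq2 adjusted p = 0.016) in the authors' deposited table, and none of the 3 remained called after centring. Copa, Cope, Copg1, Copz1, Arf1 and Arf4 ranged from -0.10 to 0.18 for crypt and from -0.20 to 0.12 for the DKO label in the authors' deposited tables, and none was called. Copz1 gained a call toward WT villus for the DKO label after centring.

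The p24 proteins, cargo receptors that cycle between ER and Golgi, moved in opposite directions. Tmed4 read 166 in WT villus, 99.1 in crypt and 79.3 in labelled-DKO villus. It was higher in WT villus by 0.74 ± 0.11 (1.67-fold, DESeq2 adjusted p = 4.92e-10) and 1.06 ± 0.11 (2.09-fold, adjusted p = 1.11e-20) in the authors' deposited tables. Tmed7 had the opposite order, 76.7 in WT villus, 113 in crypt and 107 in labelled-DKO villus, at -0.56 ± 0.12 (DESeq2 adjusted p = 4.73e-05) and -0.48 ± 0.12 (adjusted p = 3.14e-04) in the authors' deposited tables. Tmed10 went with Tmed7, at -0.34 ± 0.08 (DESeq2 adjusted p = 8.10e-05) and -0.42 ± 0.07 (adjusted p = 1.10e-07) in the authors' deposited tables.

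Tmed1 was the p24 gene at which both villus groups had means above crypt, with 250 in WT villus and 241 in labelled-DKO villus against 170 in crypt. Labelled-DKO villus and crypt were not called apart at this or any other p24 gene. The authors' deposited tables give Tmed1 0.56 ± 0.18 (DESeq2 adjusted p = 0.0081) and 0.05 ± 0.18, though its span overlaps Dnm2. Tmed2 was called for the DKO label alone, at -0.29 ± 0.13 (DESeq2 adjusted p = 0.047) in the authors' deposited table, and lost that call after centring. Tmed3 and Tmed9 were called in neither.

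TRAPP complexes tether vesicles and activate Rab1. Of their 5 measured genes, Trappc5 and Trappc8 were called higher in crypt in the authors' deposited table, at -0.57 ± 0.15 and -0.38 ± 0.13 (DESeq2 adjusted p = 6.39e-04 and 0.0089). The authors' deposited table gives them -0.42 ± 0.14 and -0.44 ± 0.13 for the DKO label (DESeq2 adjusted p = 0.0090 and 0.0015). Trappc10, a subunit of the Golgi form TRAPPII, was called in the opposite direction for the DKO label, at 0.18 ± 0.08 (DESeq2 adjusted p = 0.033) in the authors' deposited table.

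The 30 Rab GTPases had 2 calls higher in WT villus and 4 higher in crypt in the authors' deposited table for crypt. These were 6.67% and 13.3%, beside 18.6% and 18.8% of all genes. For the DKO label the authors' deposited table has 4 higher in WT villus and 13 higher in labelled-DKO villus. These were 13.3% and 43.3%, beside 22.4% and 29.5% of all genes. Centring gave 5 and 3 for crypt, or 16.7% and 10%, beside 21.1% and 14.8% of all genes. For the DKO label it gave 4 and 11, or 13.3% and 36.7%, beside 26.6% and 22.1% of all genes. After centring, more Rabs were still called higher in labelled-DKO villus than higher in WT villus, while for crypt the larger count changed side.

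Among Rabs of the ER and Golgi, Rab2a and Rab18, which act at the Golgi and at ER and lipid droplets, were lowest in WT villus. Rab2a read 384 in WT villus, 491 in crypt and 507 in labelled-DKO villus. In the authors' deposited tables it was at -0.35 ± 0.09 and -0.40 ± 0.09 (DESeq2 adjusted p = 2.50e-04 and 1.29e-05), and Rab18 at -0.35 ± 0.08 and -0.24 ± 0.08 (adjusted p = 4.32e-05 and 0.0044). Rab1b, of ER to Golgi traffic, was called higher in villus than in crypt at 0.32 ± 0.13 (DESeq2 adjusted p = 0.045), and Rab43, a Golgi Rab, higher than in labelled-DKO villus at 0.39 ± 0.10 (adjusted p = 4.36e-04), in the authors' deposited tables.

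Rabs of apical and regulated secretion split. Rab8a, which delivers cargo to the enterocyte brush border, read 212 in WT villus, 179 in crypt and 160 in labelled-DKO villus, at 0.24 ± 0.10 and 0.40 ± 0.10 in the authors' deposited tables (DESeq2 adjusted p = 0.040 and 1.34e-04). Rab26 and Rab3a, known from granules of secretory and neuroendocrine cells, were higher in labelled-DKO villus. Rab3a had the largest difference of all members in that direction, with 63.5 in WT villus, 73.4 in crypt and 146 in labelled-DKO villus, -1.20 ± 0.26 in the authors' deposited table (2.30-fold, DESeq2 adjusted p = 1.77e-05). Its span overlaps Mpv17l2. Rab26 was lowest in WT villus, with 58.2 against 97.0 in crypt and 92.0 in labelled-DKO villus. The authors' deposited tables give Rab26 -0.74 ± 0.22 (DESeq2 adjusted p = 0.0029) and -0.66 ± 0.22 (adjusted p = 0.0056).

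The 13 Rabs of early and recycling endosomes differed little between villus and crypt, where Rab10 alone was called, at -0.34 ± 0.14 (DESeq2 adjusted p = 0.036) in the authors' deposited table. That call was lost after centring, when Rab11b and Rab4a were called higher in villus. Against labelled-DKO villus 8 (61.5%) were called, beside 51.9% of all genes. Of these, 2 were higher in WT villus and 6 higher in labelled-DKO villus, beside 22.4% and 29.5% of all genes. After centring the counts were 2 and 5, beside 26.6% and 22.1% of all genes. The 6 were Rab11a, the central GTPase of apical recycling, Rab35 and Rab10, which act in endocytic recycling, Rab14, Rab21 and the epithelial Rab25.

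Rab11a read 173 in WT villus, 182 in crypt and 292 in labelled-DKO villus, so that the labelled-DKO group stood alone at the high end. It differed by -0.75 ± 0.16 (1.68-fold, DESeq2 adjusted p = 1.98e-05) in the authors' deposited table for the DKO label and by -0.07 ± 0.17 in that for crypt. Rab35 had the same form, with 90.0, 93.1 and 150, at -0.74 ± 0.14 (1.67-fold, DESeq2 adjusted p = 4.78e-07) in the authors' deposited table, and its span overlaps Mir7030. Rab21, Rab10, Rab14 and Rab25 were at -0.54 ± 0.12, -0.59 ± 0.14, -0.55 ± 0.18 and -0.30 ± 0.12 in the authors' deposited table for the DKO label, with DESeq2 adjusted p from 1.99e-05 to 0.031.

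Rab17 had the opposite pattern. This epithelial Rab, known from apical recycling and transcytosis, read 141 in WT villus, 113 in crypt and 63.5 in labelled-DKO villus. It was at 1.15 ± 0.16 (2.21-fold, DESeq2 adjusted p = 4.10e-12) in the authors' deposited table for the DKO label and at 0.32 ± 0.15 (adjusted p = 0.0895) in that for crypt. Rab20 was the other early endosomal Rab called higher in WT villus, at 0.42 ± 0.13 (DESeq2 adjusted p = 0.0040) in the authors' deposited table.

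Of the 3 Rabs of late endosomes, Rab7, which drives fusion with lysosomes, had the smallest adjusted p for the DKO label among members called higher in labelled-DKO villus. It read 313 in WT villus, 359 in crypt and 555 in labelled-DKO villus, at -0.83 ± 0.09 (1.77-fold, DESeq2 adjusted p = 1.65e-18) in the authors' deposited table. Rab9, which returns receptors from late endosomes to the Golgi, was at -0.46 ± 0.17 (DESeq2 adjusted p = 0.014) there in the authors' deposited table, and Rab24 was not called. None of the 3 was called against crypt by the DESeq2 adjusted p, and 1 of them, Rab7, had an unadjusted p under 0.05.

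**Figure D3:**
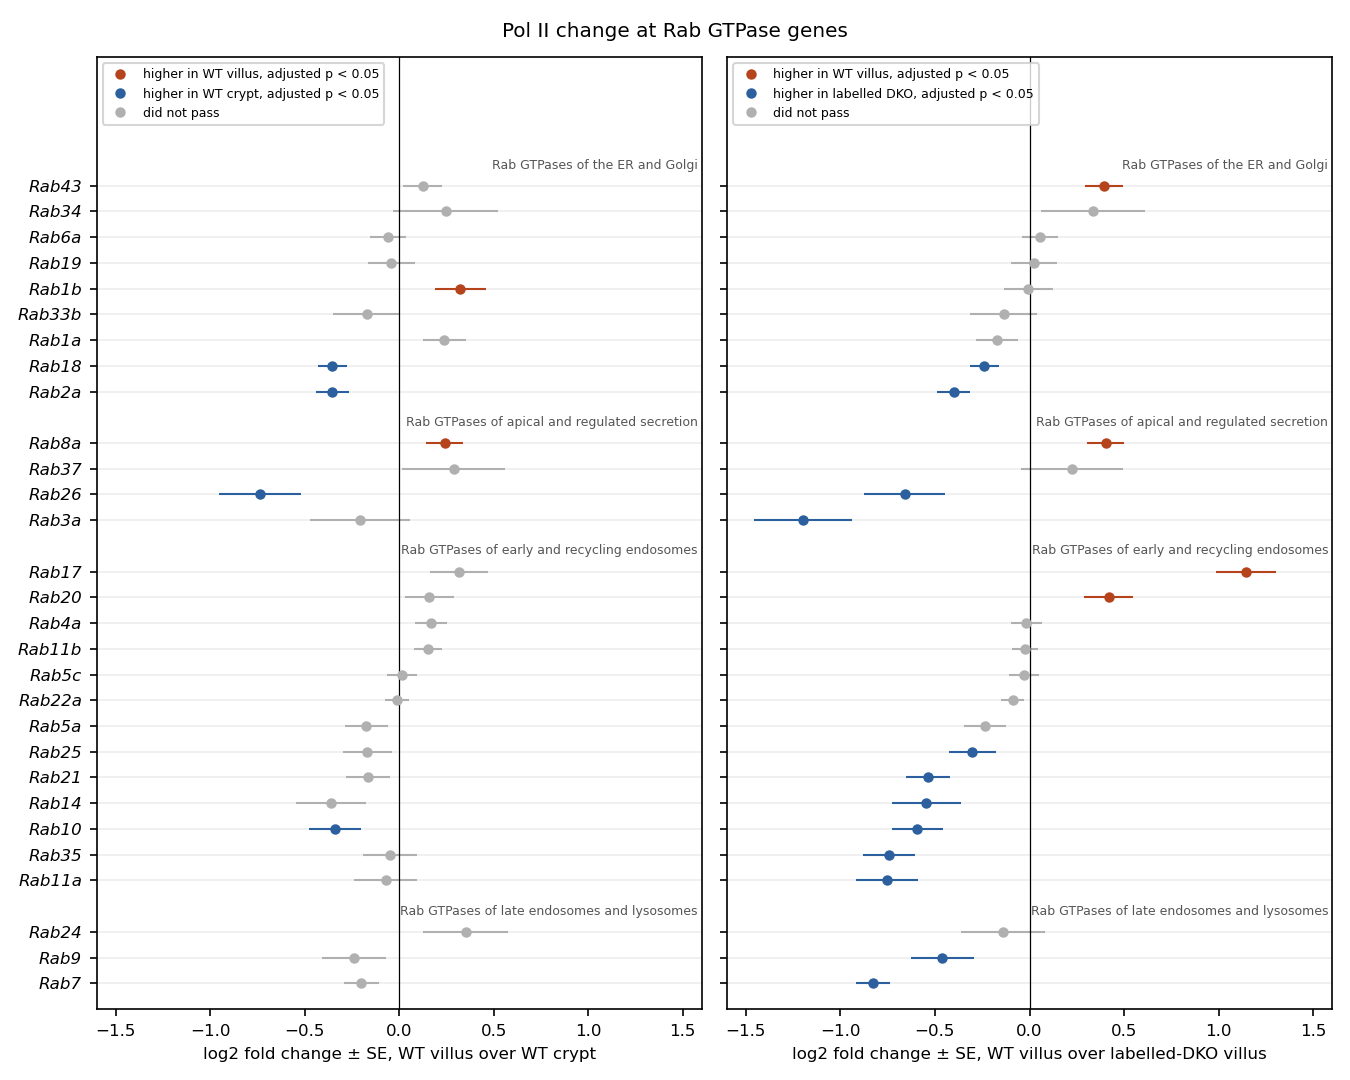
Log2 fold change with its SE (x axes) of 29 Rab GTPases by compartment, for WT villus over WT crypt (left) and over labelled-DKO villus (right); colours mark DESeq2 adjusted p under 0.05. On the right, Rab17 lies at 1.15 while Rab11a, Rab35 and Rab7 lie between -0.74 and -0.83, and on the left all 4 are grey.

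Rab partners were measured at 3 genes. Rab3gap2, a subunit of the complex that acts on Rab3 and Rab18, read 429 in WT villus, 470.5 in crypt and 652 in labelled-DKO villus, at -0.60 ± 0.08 (DESeq2 adjusted p = 9.84e-14) in the authors' deposited table. Its span overlaps Iars2. Rab11fip3, a Rab11 effector, went the other way at 0.44 ± 0.11 (DESeq2 adjusted p = 2.23e-04) in the authors' deposited table.

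In endosomal sorting, the authors' deposited table calls 3 of 6 retromer and GARP genes, 2 of 4 HOPS and CORVET genes and 3 of 7 ESCRT and Vps4 genes higher in labelled-DKO villus, and 1 gene of these lists, Vps28, higher in WT villus. Over these 3 lists that is 8 of 17, beside 29.5% of all genes. After centring the counts were 1, 2 and 2, or 5 of 17, beside 22.1% of all genes, still with Vps28 alone opposite. Vps26a, a core subunit of retromer, read 181 in WT villus, 227 in crypt and 281 in labelled-DKO villus. It was at -0.32 ± 0.12 (DESeq2 adjusted p = 0.020) and -0.63 ± 0.12 (adjusted p = 4.30e-07) in the authors' deposited tables. Vps29, its retromer partner, was at -0.28 ± 0.12 (DESeq2 adjusted p = 0.040) and the GARP subunit Vps54 at -0.29 ± 0.11 (adjusted p = 0.022) in the authors' deposited table for the DKO label.

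Vps16, a core subunit of HOPS and CORVET, was lowest in WT villus, with 132 against 164 in crypt and 179.5 in labelled-DKO villus. It was at -0.32 ± 0.09 (DESeq2 adjusted p = 0.0032) and -0.44 ± 0.09 (adjusted p = 5.78e-06) in the authors' deposited tables, and its span overlaps Pced1a. Vps11, another shared core subunit, was at -0.32 ± 0.10 (DESeq2 adjusted p = 0.0034) in the authors' deposited table for the DKO label. Vps4b, the ATPase that recycles ESCRT-III, was at -0.61 ± 0.12 (DESeq2 adjusted p = 4.92e-06) and Vps4a at -0.37 ± 0.13 (adjusted p = 0.010) in that authors' deposited table.

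Within ESCRT-I and ESCRT-II the genes diverged. Vps25 of ESCRT-II read 43.5 in WT villus, 64.7 in crypt and 63.8 in labelled-DKO villus, at -0.57 ± 0.18 and -0.55 ± 0.18 in the authors' deposited tables (DESeq2 adjusted p = 0.0064 and 0.0048). Vps28 of ESCRT-I was highest in WT villus with 263, against 194 in crypt and 140 in labelled-DKO villus. It was at 0.91 ± 0.25 (DESeq2 adjusted p = 7.05e-04) for the DKO label and at 0.44 ± 0.24 (adjusted p = 0.152) for crypt in the authors' deposited tables. Vps37b, also of ESCRT-I, was called against crypt alone, at 0.45 ± 0.16 (DESeq2 adjusted p = 0.021) in the authors' deposited table.

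TFEB and TFE3, regulators of lysosomal genes, are known to bind TCACGTGA. This palindrome was found in windows of 5 of 94 members (5.32%), Rab21, Rab24, Rab5a, Vps16 and Vps26a, beside 2.07% of the tables' genes with a window. By windows the shares were 5.13% of the members', 1.76% of those of the tables' genes and 0.974% of all. All 5 belong to the endosomal and lysosomal roles. Rab21, Vps16 and Vps26a were called toward labelled-DKO villus and are printed 5′ to 3′ on the gene's strand (GRCm38.p6), with the motif in capitals.
Rab21, chr10:115315542-115315841, minus strand: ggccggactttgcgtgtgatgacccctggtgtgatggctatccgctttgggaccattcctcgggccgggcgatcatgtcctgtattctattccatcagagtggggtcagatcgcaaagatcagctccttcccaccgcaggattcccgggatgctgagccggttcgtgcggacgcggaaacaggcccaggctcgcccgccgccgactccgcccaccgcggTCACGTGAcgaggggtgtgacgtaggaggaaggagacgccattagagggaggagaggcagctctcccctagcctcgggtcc
Vps16, chr2:130424070-130424369, plus strand: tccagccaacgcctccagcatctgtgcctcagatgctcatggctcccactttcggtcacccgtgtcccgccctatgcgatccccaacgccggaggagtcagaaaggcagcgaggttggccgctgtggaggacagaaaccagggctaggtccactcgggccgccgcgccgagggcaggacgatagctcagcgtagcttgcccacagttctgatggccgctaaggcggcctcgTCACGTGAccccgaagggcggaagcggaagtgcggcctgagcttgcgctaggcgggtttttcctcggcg
Vps26a, chr10:62486756-62487055, minus strand: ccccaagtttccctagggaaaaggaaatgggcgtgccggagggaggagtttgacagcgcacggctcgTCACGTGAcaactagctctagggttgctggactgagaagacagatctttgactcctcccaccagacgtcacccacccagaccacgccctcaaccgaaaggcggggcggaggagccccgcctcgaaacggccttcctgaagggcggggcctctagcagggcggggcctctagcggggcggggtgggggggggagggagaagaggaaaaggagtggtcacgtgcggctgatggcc

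The match begins 31, 19 and 183 bases before these starts. The window of another Vps26a start, not printed, holds a separate match that begins 152 bases before that start. Rab24 and Rab5a, which hold the same letters, were at -0.14 ± 0.22 and -0.24 ± 0.11 for the DKO label in the authors' deposited table and were not called.

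Sorting nexins, membrane-binding proteins of endosomes, moved in opposite directions. Of 14, the authors' deposited tables call 2 higher in WT villus and 3 higher in crypt, and 3 higher in WT villus and 4 higher in labelled-DKO villus, which became 4 and 2 after centring. The shares called were 35.7% for crypt and 50% for the DKO label, beside 37.4% and 51.9% of all genes. After centring, 26.6% of all genes were called higher in WT villus and 22.1% higher in labelled-DKO villus. Snx5 and Snx3, a retromer-linked pair, went with retromer. Snx5 had 161 in WT villus, 268.5 in crypt and 222 in labelled-DKO villus, at -0.73 ± 0.19 and -0.46 ± 0.19 in the authors' deposited tables (DESeq2 adjusted p = 4.77e-04 and 0.028), and its span holds Snord17. Snx3 had 221, 270.3 and 340 in the same order, at -0.29 ± 0.12 and -0.62 ± 0.11 (DESeq2 adjusted p = 0.036 and 4.04e-07) in the authors' deposited tables.

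Snx20, known from leukocytes, read 163 in WT villus, 98.6 in crypt and 102 in labelled-DKO villus, at 0.72 ± 0.12 and 0.67 ± 0.11 in the authors' deposited tables (DESeq2 adjusted p = 1.00e-08 and 2.33e-08). Cd74, the 1 immune marker found, was also higher in WT villus in both, at 0.72 ± 0.24 and 1.33 ± 0.24 in the authors' deposited tables, and the part of immune cells was not tested. Snx25 was higher in WT villus than in labelled-DKO villus, 824.5 against 519, at 0.67 ± 0.09 (DESeq2 adjusted p = 1.62e-12) in the authors' deposited table. Snx9, an endocytic sorting nexin, was at 0.16 ± 0.07 and 0.36 ± 0.07 (DESeq2 adjusted p = 0.043 and 5.60e-07) there, in the authors' deposited tables.

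Both surface syntaxins measured were highest in WT villus. Stx3, the apical syntaxin whose human counterpart is mutated in a form of microvillus inclusion disease, read 363 in WT villus, 278 in crypt and 325 in labelled-DKO villus. Both villus groups were thus above crypt. It was at 0.38 ± 0.06 (DESeq2 adjusted p = 4.06e-10) and 0.16 ± 0.05 (adjusted p = 0.0076) in the authors' deposited tables. Stx4a, the basolateral syntaxin, was at 0.39 ± 0.14 and 0.60 ± 0.14 (DESeq2 adjusted p = 0.016 and 4.67e-05) in the authors' deposited tables, with 108 in WT villus, 82.7 in crypt and 71.4 in labelled-DKO villus. Of the other 6 SNAREs, Sec22c was called higher in WT villus and Stx7, of late endosomes, higher in labelled-DKO villus.

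The largest WT villus excess for the DKO label fell on a gene that shares only the prefix. Sec14l2, a lipid-binding protein, read 458 in WT villus, 206 in crypt and 133 in labelled-DKO villus, at 1.15 ± 0.18 and 1.78 ± 0.18 in the authors' deposited tables (DESeq2 adjusted p = 3.69e-09 and 2.09e-21). Sec14l1 and Vps72, a chromatin protein, also match by name alone. Without these 3, 34 of 115 members (29.6%) were called for crypt and 62 (53.9%) for the DKO label, beside 37.4% and 51.9% of all genes.

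Labelled-DKO villus and WT crypt were compared through the difference of the 2 deposited fold changes, with the largest SE it can have. By this Wald test with Benjamini-Hochberg adjustment over all genes, 10 of 118 members were called, with 5 higher in labelled-DKO villus and 5 in crypt, beside 13.6% of all genes, 6.41% higher in labelled-DKO villus and 7.19% higher in crypt. The 5 higher in labelled-DKO villus were Rab35 by 0.69 ± 0.20 (adjusted p = 0.0061), Rab11a by 0.68 ± 0.23 (adjusted p = 0.0300), Rab7 by 0.63 ± 0.13 (adjusted p = 4.13e-05), Rab3gap2 by 0.47 ± 0.11 (adjusted p = 4.47e-04) and Stx3 by 0.22 ± 0.08 (adjusted p = 0.038). For the first 4, WT villus and WT crypt were not called apart, and labelled-DKO villus lay above both.

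The 5 lower in labelled-DKO villus than in crypt were Sec16b by -0.89 ± 0.20 (adjusted p = 1.93e-04), Rab17 by -0.83 ± 0.22 (adjusted p = 0.0025), Snx25 by -0.46 ± 0.13 (adjusted p = 0.0044), Sec23a by -0.39 ± 0.11 (adjusted p = 0.0033) and Trappc10 by -0.31 ± 0.11 (adjusted p = 0.033), by the same Wald test. At these genes labelled-DKO villus was below both WT groups. With the larger of the 2 SEs in place of the largest possible one, 26 members were called, 15 and 11, and all 10 were among them. By that rule the share of all genes called was 29.4%, with 15.1% higher in labelled-DKO villus and 14.3% in crypt. This comparison is made from the other 2 and adds no independent data.

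**Figure D4:**
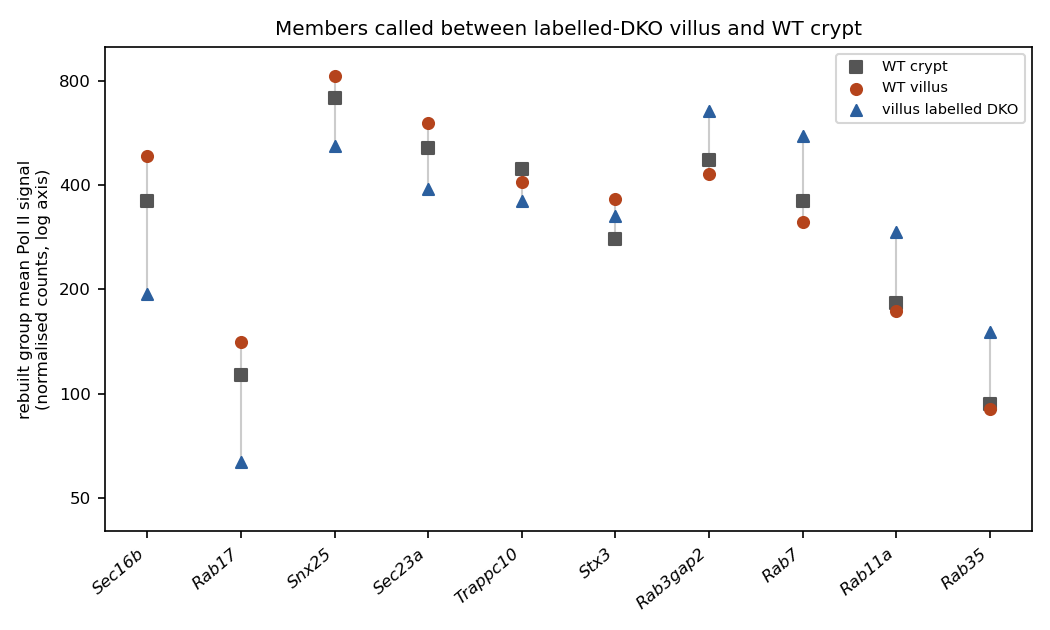
Rebuilt mean Pol II signal (log y axis, normalised counts) in WT crypt, WT villus and labelled-DKO villus at the 10 members called between labelled-DKO villus and crypt; each symbol is 1 group mean and no error per group can be given. Labelled-DKO villus is lowest at Sec16b (194) and Rab17 (63.5) and highest at Rab7 (555), Rab11a (292) and Rab35 (150).

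Close relatives within a family lay apart in some pairs and close together in others. Of 24 paralog pairs listed, 10 had both genes in the tables, and the difference within a pair was not tested. Sar1a was at -0.21 ± 0.12 and -0.24 ± 0.11 in the authors' deposited tables where Sar1b was at 0.36 and 0.39, and Sar1a overlaps another transcript. Arf4 was at 0.12 ± 0.14 and -0.17 ± 0.14 in the authors' deposited tables where Arf5 was at 0.87 and 1.10. Rab11b was at 0.15 ± 0.07 and -0.02 ± 0.07 in the authors' deposited tables, and so lay near 0 for the DKO label where Rab11a was at -0.75. Vps37a and Vps37b were at -0.28 ± 0.12 and 0.45 ± 0.16 for crypt in the authors' deposited table. Vps4a and Vps4b lay close together for crypt, at -0.24 ± 0.13 and -0.24 ± 0.13 in the authors' deposited table. Vps4a and Vps4b, Rab5a and Rab5c, Sec24c and Sec24d, and Arf1 and Arf3 make up the other pairs beside Sec16a and Sec16b, and Rab11a and Rab25.

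**Figure D5:**
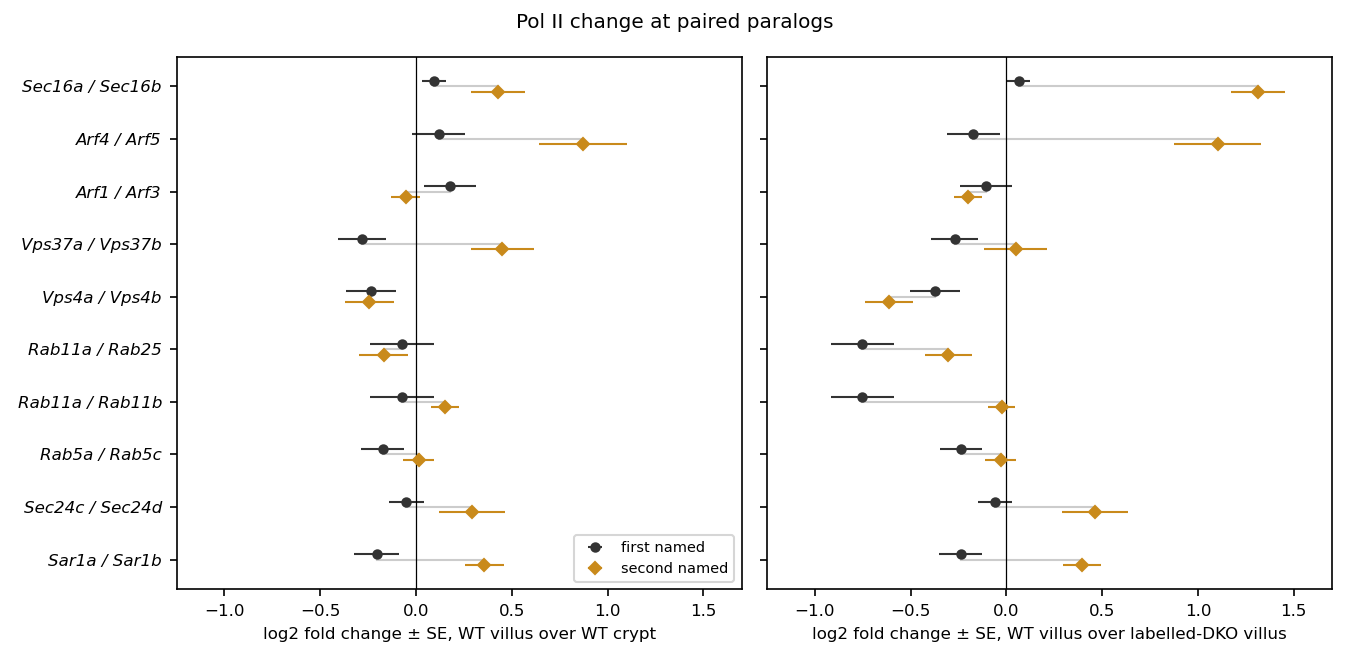
Log2 fold change with its SE (x axes) of both genes in 10 paralog pairs, for WT villus over WT crypt (left) and over labelled-DKO villus (right). Sar1b, Arf5 and Sec16b lie to the right of Sar1a, Arf4 and Sec16a in both panels, while Vps4a and Vps4b lie on the same side of 0.

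Genes of the same routes with other names were looked up in a list of 100, of which 70 were in the tables. By the authors' deposited tables, 34 of the 70 were called for crypt, 16 higher in WT villus and 18 higher in crypt, and 35 for the DKO label, 13 higher in WT villus and 22 higher in labelled-DKO villus, beside 37.4% and 51.9% of all genes. The 5 largest called changes for the DKO label were those of Mcfd2, Srp14, Ehd1, Surf4 and Tfg. Mcfd2, partner of an ER cargo receptor, read 209 in WT villus, 138 in crypt and 83.2 in labelled-DKO villus, at 0.59 ± 0.10 and 1.33 ± 0.10 in the authors' deposited tables (DESeq2 adjusted p = 6.53e-08 and 1.19e-35). Surf4, a cargo receptor of lipoprotein export, and Tfg, an exit site protein, were at 0.89 ± 0.09 and 0.77 ± 0.14 for the DKO label in the authors' deposited table (DESeq2 adjusted p = 8.78e-20 and 2.19e-07).

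The recycling ATPase Ehd1 was at 0.95 ± 0.13 and 1.04 ± 0.13 in the authors' deposited tables (DESeq2 adjusted p = 4.49e-12 and 4.26e-15). Srp14 and Srp19, both of the signal recognition particle, differed in direction for the DKO label. The authors' deposited table gives 1.16 ± 0.19 and -0.36 ± 0.16 (DESeq2 adjusted p = 4.42e-09 and 0.0497). For crypt Srp19 was at -0.65 ± 0.16 (DESeq2 adjusted p = 3.67e-04) in the authors' deposited table, and Srp14, at 0.18 ± 0.18, was not called. Ssr1, which sits beside the translocon, was at -0.59 ± 0.15 for crypt in the authors' deposited table (DESeq2 adjusted p = 5.86e-04), the side of the Sec61 genes. Chmp6, of ESCRT-III, was called toward villus, at 0.57 ± 0.19 (DESeq2 adjusted p = 0.011) in the authors' deposited table.

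The members' transcript spans, from the authors' window positions (mm9), had a median of 22.2 kb beside 12.0 kb for 6391 genes of the tables, and 29 of the 118 (24.6%) overlapped another annotated gene. Mean signal went with span across the 118 members (Spearman's rho 0.77, a description across genes of 1 set of libraries), as it did across the 6391 genes (0.79), so levels of different genes were not compared. Of the called genes described above, Sec16b, Rab35, Rab3gap2, Rab3a, Rab10, Rab20, Snx5, Tmed1, Vps16, Vps29 and Vps54 are among the overlapping ones.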

How the data were processed

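Pol II ChIP-seq of mouse duodenal epithelium was aligned with Bowtie2 2.2.6 to mm9 and tested with DESeq2 1.36.0, per the submitters' processing notes. The authors' deposited tables hold, for 6429 genes, the mean signal over all libraries (counts divided by size factors), the log2 fold change and its SE, the Wald score, and the p-value before and after adjustment. The window behind these values, the authors' gene filter and any shrinkage of fold changes are not given in the sources used here. The authors' window tables, made with featureCounts 2.0.3 per the file headers, have no column names. Their 18 columns of counts could be matched to no sample and were not used in any step, so the depth per library is not known, and p-values rest on the spread between libraries that may be technical replicates.

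From the deposited values, group means were rebuilt as 3 equal groups with unshrunken fold changes, and labelled-DKO villus was set against crypt by the difference of both fold changes, with an SE equal to the root of the summed squares. These steps were tested on simulated data. Python 3.11.15 and scipy 1.17.1 were used. Promoter windows are RefSeq's (GRCm38.p6) and were matched by symbol. The 118 members and all gene, pair and marker lists were chosen with earlier results of these data known. Named genes are the 10 called members with the largest change per direction and comparison, all measured genes of the coat, translocon and p24 lists and of the paralog pairs, members of a list with 5 or fewer calls in a direction, and the 5 largest changes of related machinery. Agr2, Spink4, Muc2, Fcgbp, Zg16, Tff3, Fabp1, Cd74 and the Srp, Ssr and Spcs genes outside those 5 were chosen after their values were seen. Alternatives were an adjusted p under 0.01, a change beyond 0.5, a test against changes up to 0.5, centring on the median of all genes, a mean signal of at least 100, and leaving out overlapping genes or name matches outside trafficking.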

Additional observations from a re-analysis of the deposited data

How the results depend on the processing

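No paired analysis was possible because no value per replicate could be assigned to a sample. For the same reason no library could be left out in turn. Across the alternatives, 1207 values of named genes kept direction and call, 231 lost the call, 15 gained one and 7 changed sign, all 7 after centring and none of them called. These were Copb2 (0.019) and Tmed9 (0.00047) for crypt, and Rab11b (0.057), Rab1b (0.075), Rab5c (0.051), Sec24c (0.022) and Tmed3 (0.074) for the DKO label. Of the 1207, 171 came from leaving out overlapping genes and 209 from leaving out name matches. Those settings recompute no gene's value, so these could not differ. The stricter thresholds could not change a sign or add a call. The 1207 therefore do not measure robustness. For crypt, 22 members were called at an adjusted p under 0.01 (10 higher in villus, 12 in crypt), 11 with a change beyond 0.5 (6 and 5) and 2 in the test against changes up to 0.5 (2 and 0), beside 27.0%, 18.2% and 3.92% of all genes. For the DKO label, 48 were called at an adjusted p under 0.01, 26 had a change beyond 0.5 (12 and 14) and 5 passed the test against 0.5 (4 and 1), beside 40.9%, 29.2% and 9.91% of all genes. Between labelled-DKO villus and crypt, 7 were called at an adjusted p under 0.01 (3 higher in labelled-DKO villus), beside 8.68% of all genes. Without overlapping genes 7 were called (3 higher in labelled-DKO villus), beside 13.6%. A change beyond 0.5 was called at 5 (3 and 2), beside 10.6%, and 0 passed the test against 0.5 (0 and 0), beside 1.40%. With the larger SE 26 were called (15 and 11), beside 29.4% of all genes. Fewer genes can pass a stricter threshold; the cause of the other changes was not tested. Medians moved past the typical SE at a mean signal of at least 100 for p24 genes (0.21, crypt), and for the DKO label for ESCRT (-0.12), ER and Golgi Rabs (-0.14) and SNAREs (-0.039), and for SNAREs without overlapping genes (0.15). The other 142 recomputed medians did not, though many could not. Centring subtracted the all-gene median from each, -0.04 for crypt, -0.08 for the DKO label and 0.0026 between labelled-DKO villus and crypt. These are smaller in size than the typical SE of every list given a median, so centring could move none. Leaving out name matches changed no role list given a median. The unknown depth per library limits all of these values.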

Other observations

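The authors' gene body windows treat the strands differently, which touches the members in proportion. For 19858 transcripts on the plus strand the window starts 350 bp downstream of the start site and stops 500 bp before the transcript end. For 21190 on the minus strand it starts 350 bp upstream of the start site and runs 500 bp past the end, and so holds the promoter. Lengths rebuilt in this way were within 5 bp of RefSeq's for 97.1% of 3717 transcripts on the plus strand and 97.5% of 4857 on the minus strand. Of the members 55 lie on the plus strand and 63 on the minus strand. For crypt 25.5% of plus-strand and 34.9% of minus-strand members were called, beside 35.1% and 39.2% of all genes. For the DKO label the shares were 47.3% and 58.7%, beside 50.8% and 53.0%. Whether the deposited fold changes were computed from these windows is not given in the sources used here, and the difference between strands was not tested.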
